A study of Saccharomyces cerevisiae with 4 samples.

Results

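The 9 genes described here encode the enzymes that make and break down glycogen in budding yeast, Saccharomyces cerevisiae. They were taken by name from the table of RNA levels: PGM2, UGP1, GLG1, GLG2, GSY1, GSY2, GLC3, GPH1 and GDB1, which are 9 of the 7126 named features of the table, and all 9 were among the 6781 features tested. RNA was measured in 2 libraries from a strain lacking the DEAD-box RNA helicase gene DBP2 (dbp2null) and in 2 libraries from a wild-type strain, each from ribosome-depleted total RNA of whole cells grown at 30 °C in YPD, a rich glucose medium, to an optical density of about 0.4. The series concerns how Dbp2 acts on non-coding RNA and R-loops, and its design text describes the repeat library as a biological replicate, without saying whether replicates came from separate cultures. The dbp2null cells are strain BTY115, MATa, in which dbp2::KanMx replaces the gene, with ura3Δ0, leu2Δ0 and his3Δ0 alleles, TRP1, a methionine requirement and a deletion listed as lysΔ. The wild-type cells are MATa with his3Δ1, leu2Δ0, met15Δ0 and ura3Δ0. Both strains lack URA3 and LEU2 and carry a his3 deletion, and since they also differ in other markers, the loss of DBP2 cannot be told apart from strain background. Each genotype is 1 strain.

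Glycogen is a branched glucose polymer that yeast lays down as a carbon reserve, mostly when glucose runs low, at entry into stationary phase or under stress. Phosphoglucomutase and UDP-glucose pyrophosphorylase turn glucose-6-phosphate into UDP-glucose, glycogenin starts a chain on itself, glycogen synthase lengthens it, and the branching enzyme adds side chains. Phosphorylase and the debranching enzyme release the glucose again. Many of these genes are known to be induced by the stress factors Msn2 and Msn4, which bind a short promoter sequence called the stress response element.

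RNA levels are FPKM, fragment numbers scaled to the length of the feature and to the mapped fragments of the library, so they can be compared between genes of different length. Read depth is unknown, and the FPKM columns summed to 50064486 and 3373067 in dbp2null replicates 1 and 2, against 52886924 and 32243557 in wild-type replicates 1 and 2, with 4.59% and 20.2% of the sum in protein-coding genes in dbp2null and 4.14% and 6.94% in wild type. DBP2 itself had 2.90 and 1.03 FPKM in dbp2null, against 213 and 199 FPKM in wild type. All 6 marker genes of MATa cells were detected, with a summed level of 17069 and 827 FPKM in dbp2null against 25690 and 33172 FPKM in wild type. MFA2 alone read 14777 and 347 FPKM in dbp2null against 23641 and 30039 FPKM in wild type, so the sum mostly follows this gene. Of the 6, MFA2 and BAR1 lay lower in both dbp2null libraries (20.7% of all tested features did). STE6 lay higher in both (49.8% did), at 70.2 and 68.8 FPKM against 53.2 and 48.8 FPKM, and MFA1, STE2 and AGA2 overlapped. The 4 MATalpha markers summed to 52.2 and 70.4 FPKM in dbp2null against 29.3 and 23.5 FPKM in wild type, with none at 0. Sporulation genes, 15 of them, which growing haploid cells are known not to use, had medians of 11.8 and 18.7 FPKM in dbp2null against 4.13 and 3.802 FPKM in wild type, with no gene at 0. Their summed level was 192 and 296 FPKM in dbp2null against 71.7 and 54.5 FPKM in wild type. This low level of normally silent genes moved with genotype, and the glycogen genes are set against it below. In RNA from whole cultures, more RNA per cell and more cells that use a gene cannot be told apart.

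Glycogen genes mostly read higher in the strain without DBP2. In 8 of the 9 genes both dbp2null libraries lay above both wild-type libraries, as they did for 49.8% of all tested features, and in the remaining one, UGP1, both lay below, as for 20.7%. Only GSY2 passed the test (limma on log2 of FPKM plus 1, Benjamini-Hochberg adjusted p below 0.05), 1 of 9 genes against 0.973% of features called higher, 0.221% called lower and 1.19% called in either direction. At an unadjusted p below 0.05, 8 of the 9 were higher and none lower, against 32.5% of all features higher and 5.41% lower. The median log2 fold change of the 9 minus that of all tested features was 0.81 with all 4 libraries. It was 1.09 without dbp2null replicate 1 and 0.51 without dbp2null replicate 2. Without wild-type replicate 1 it was 0.85, and without wild-type replicate 2 it was 0.89. In each of these fits 8 of the 9 had a positive value. With 1 library left out, the lone library of a genotype is assumed to vary like the pair of the other genotype. Calls from such fits therefore rest on the spread of that pair. The median log2 fold change of the 9 genes was 1.10, beside 0.28 over all tested features, of which 62.3% had a positive value. The fold changes below are log2 of FPKM plus 1, dbp2null over wild type, and understate the change of weakly expressed genes.

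**Figure D1:**
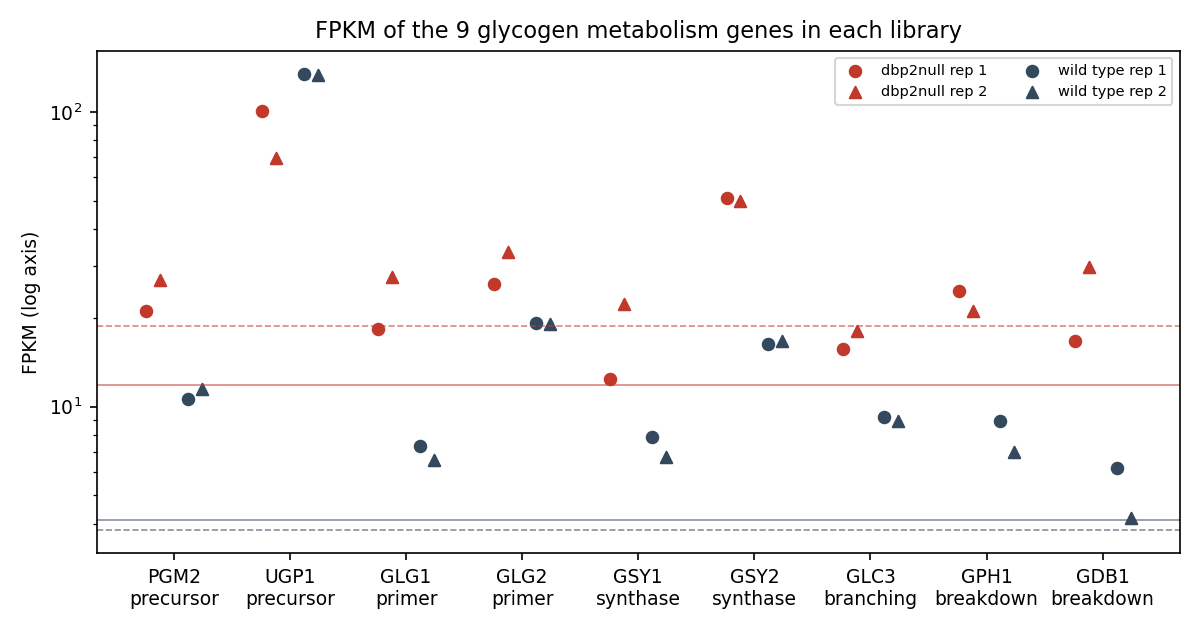
FPKM (log axis) of each glycogen gene in the 2 dbp2null (red) and 2 wild-type (dark) libraries, circles for replicate 1 and triangles for replicate 2; horizontal lines mark the median of 15 sporulation genes in each library (solid for replicate 1, dashed for replicate 2). GSY2 stands at 51.1 and 49.8 FPKM in dbp2null against 16.3 and 16.6 FPKM in wild type, while UGP1 is the only gene whose dbp2null points lie below wild type.

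The precursor enzymes differed in direction. PGM2 (YMR105C, chromosome XIII, 475897 to 477606, minus strand, R64 assembly), the main phosphoglucomutase, read 21.1 and 26.95 FPKM in dbp2null against 10.6 and 11.5 FPKM in wild type. Both dbp2null libraries were higher, without a call (log2 fold change 1.05, SE 0.21, limma adjusted p = 0.0602). UGP1 (YKL035W, chromosome XI, 369891 to 371390, plus strand), the UDP-glucose pyrophosphorylase that also feeds cell wall glucan and trehalose synthesis, read 100.7 and 69.7 FPKM in dbp2null against 134.8 and 133.6 FPKM in wild type. Its dbp2null libraries were the lower ones and lay apart from each other, and the test was not passed (-0.67, SE 0.31, limma adjusted p = 0.189). Without dbp2null replicate 1 the UGP1 value was -0.94. With protein-coding genes rescaled to one sum per library it turned to 0.14 (limma adjusted p = 0.888). That rescaling moved the median of all tested features to 1.14, from 0.28 in the main fit, so UGP1 stayed below the median in both. UGP1 was the most abundant of the 9 in every library.

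The glycogenin genes, whose products prime new chains, are a paralog pair. GLG1 (YKR058W, chromosome XI, 552770 to 554620, plus strand) read 18.4 and 27.5 FPKM in dbp2null against 7.35 and 6.59 FPKM in wild type, a log2 fold change of 1.56 (SE 0.28, limma adjusted p = 0.0559). GLG2 (YJL137C, chromosome X, 154985 to 156127, minus strand) read 26.0 and 33.4 FPKM in dbp2null against 19.2 and 19.1 FPKM in wild type, a smaller difference of 0.60 (SE 0.19, limma adjusted p = 0.1004). The dbp2null libraries were higher for both genes, and neither was called.

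Of the glycogen synthase genes, GSY2 rose and the libraries of each genotype lay close together. GSY2 (YLR258W, chromosome XII, 660716 to 662833, plus strand), for the predominant isozyme, read 51.1 and 49.8 FPKM in dbp2null against 16.3 and 16.6 FPKM in wild type, with means of 50.5 ± 0.930 FPKM in dbp2null and 16.4 ± 0.258 FPKM in wild type (SD, n = 2 each). The log2 fold change was 1.56 (SE 0.16, 95% interval 1.14 to 1.98, limma adjusted p = 0.0458). It ranked 43rd of 6781 features by p and 705th by fold change. The GSY2 call held in 3 of 14 other settings, with the value positive in all 14 (1.19 to 2.36). It ended without dbp2null replicate 2 (limma adjusted p = 0.0928), without wild-type replicate 1 (limma adjusted p = 0.190) and without wild-type replicate 2 (limma adjusted p = 0.385). The paralog GSY1 (YFR015C, chromosome VI, 174265 to 176391, minus strand) read 12.4 and 22.4 FPKM in dbp2null against 7.87 and 6.74 FPKM in wild type. Its dbp2null libraries were higher and lay well apart from each other, and it was not called (1.10, SE 0.35, limma adjusted p = 0.0956), with the value turning to -0.13 under quantile normalization.

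The branching enzyme gene GLC3 (YEL011W, chromosome V, 133120 to 135234, plus strand) read 15.7 and 18.0 FPKM in dbp2null against 9.25 and 8.90 FPKM in wild type, without a call (0.82, SE 0.21, limma adjusted p = 0.0731), and its value turned to -0.31 under quantile normalization. For breakdown, GPH1 (YPR160W, chromosome XVI, 861306 to 864014, plus strand), glycogen phosphorylase, read 24.6 and 21.1 FPKM in dbp2null against 8.92 and 6.99 FPKM in wild type (1.42, SE 0.23, limma adjusted p = 0.0559). GDB1 (YPR184W, chromosome XVI, 902044 to 906654, plus strand), the debranching enzyme, read 16.7 and 29.7 FPKM in dbp2null against 6.21 and 4.18 FPKM in wild type. GDB1 had the largest fold change of the 9 and also the widest error, and was not called (1.93, SE 0.38, limma adjusted p = 0.0588). Each of the 9 genes is 1 uninterrupted coding segment in the annotation, and no other annotated gene overlaps any of them.

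The spread within dbp2null was uneven across the genes. GSY1 and GDB1 each differed by 0.80 (log2 of FPKM plus 1) between dbp2null replicates 2 and 1, GLG1 by 0.56 and UGP1 by -0.53, whereas GSY2 differed by -0.037. Between the wild-type libraries the gaps ran from -0.48 for GDB1 to 0.11 for PGM2. Of the 9 genes, 6 read higher in dbp2null replicate 2 than in replicate 1, as did all 15 sporulation genes and 44.4% of all tested features.

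Ranks within a library do not depend on how the libraries were scaled. Among 5940 tested nuclear protein-coding genes, GSY2 stood at percentile 63.1 and 65.4 in dbp2null and at 26.3 and 33.1 in wild type. GDB1 stood at 11.2 and 30.4 in dbp2null and 6.20 and 6.26 in wild type, and GLG1 at 15.02 and 25.3 in dbp2null and 7.96 and 10.1 in wild type, so both ranked higher in dbp2null with a wide gap between its libraries. GPH1 stood at 28.4 and 11.8 in dbp2null and 10.4 and 10.7 in wild type. By rank UGP1 read lower, at 79.9 and 79.6 in dbp2null and 84.0 and 84.4 in wild type, and so did the branching enzyme gene GLC3, at 9.43 and 6.53 in dbp2null and 11.2 and 14.8 in wild type, although its FPKM was higher. Ranks of PGM2, GLG2 and GSY1 overlapped between genotypes. GSY2 was thus the only one of the 9 to stand above the median protein-coding gene in dbp2null and below it in wild type. The share of all 5940 genes whose ranks did not overlap, in either direction, was not counted, so these rank differences have no background beside them.

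**Figure D2:**
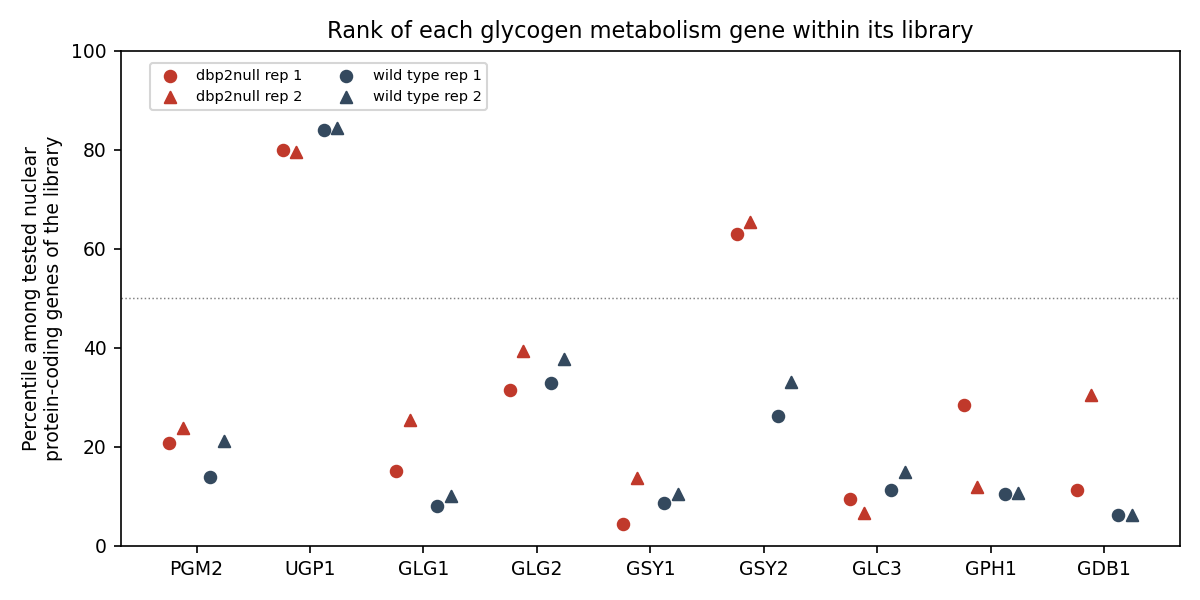
Percentile of each glycogen gene among the tested nuclear protein-coding genes of its own library, for 2 dbp2null (red) and 2 wild-type (dark) libraries; the dotted line marks percentile 50. GSY2 lies at 63.1 and 65.4 in dbp2null and at 26.3 and 33.1 in wild type, and GLC3 ranks lower in both dbp2null libraries.

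Several of the glycogen genes lay near the level of the sporulation genes. GSY2 stood at 4.32 and 2.66 times the sporulation median of its library in dbp2null and 3.94 and 4.37 times in wild type, and UGP1 at 8.51 and 3.72 times in dbp2null and 32.6 and 35.1 times in wild type. GSY1 stood at 1.05 and 1.19 times in dbp2null and 1.91 and 1.77 times in wild type, and GLC3 at 1.33 and 0.964 times in dbp2null and 2.24 and 2.34 times in wild type. PGM2 stood at 1.78 and 1.44 times in dbp2null and 2.56 and 3.02 times in wild type, and GLG2 at 2.20 and 1.79 times in dbp2null and 4.66 and 5.02 times in wild type. GPH1 stood at 2.08 and 1.13 times in dbp2null and 2.16 and 1.84 times in wild type. GDB1 was at 1.41 and 1.59 times in dbp2null and 1.503 and 1.10 times in wild type, and GLG1 at 1.55 and 1.47 times in dbp2null and 1.78 and 1.73 times in wild type. PGM2, UGP1, GLG1, GLG2, GSY1 and GLC3 were nearer to the sporulation median in both dbp2null libraries than in either wild-type library, while GSY2, GPH1 and GDB1 overlapped between genotypes. That median was itself higher in both dbp2null libraries, which lowers the multiple of any gene that rose by a smaller factor. The share of all tested features that came nearer in this way was not counted. These differences therefore have no background beside them and are not shown to be particular to glycogen genes. When the sporulation median of each library was subtracted and negative values were set to 0, a setting chosen after the data were seen, 5 of the 9 genes were higher and 4 lower. GSY2 kept a value of 1.42 without a call (limma adjusted p = 0.261), GDB1 was at 2.02, GLG1 at 1.10, GPH1 at 0.48 and PGM2 at 0.27, while GLG2, GSY1 and GLC3 turned to -0.070, -0.67 and -1.47 and UGP1 stood at -0.94. GLC3 in dbp2null replicate 2 lay below the sporulation median and was set to 0, which enters its value of -1.47. After subtraction limma called 0 of the 9, against 61 of 6781 features. At an unadjusted p below 0.05 there were 3 of the 9, against 1104 of 6781 features. Beyond this subtraction, the part of the sporulation gene level in these differences was not tested. The sporulation genes themselves read higher in both dbp2null libraries in 15 of 15 cases, against 49.8% of all tested features. Their median log2 fold change was 1.65, with 1 call, SPS100, against 0.973% of all features called higher.

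Ratios of genes within a library also need no scaling, but they do not remove a low level such as that of the sporulation genes. PGM2, GLG1, GLC3 and GDB1 stood at 0.964 to 1.78 times the sporulation median in dbp2null. The part of that level in the ratios was not tested. The phosphoglucomutase isozymes read in opposite directions. PGM1 (YKL127W), the minor isozyme, read 28.1 and 28.9 FPKM in dbp2null against 66.9 and 64.6 FPKM in wild type, without a call (-1.18, limma adjusted p = 0.0559). The FPKM of PGM2 was 0.749 and 0.931 times that of PGM1 in dbp2null and 0.158 and 0.178 times in wild type, a difference of 2.22 in the log2 ratio (SE 0.17). UGP1 over PGM2 was 4.78 and 2.59 in dbp2null and 12.7 and 11.6 in wild type, which is lower in both dbp2null libraries. GLG2 over GLG1 was 1.41 and 1.21 in dbp2null and 2.61 and 2.90 in wild type. The branching over the debranching gene, GLC3 over GDB1, was 0.942 and 0.607 in dbp2null and 1.49 and 2.13 in wild type. In these 4 ratios the genotypes did not overlap.

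The other 2 ratios overlapped between genotypes. GSY2 over GSY1 was 4.12 and 2.23 in dbp2null and 2.07 and 2.47 in wild type. Synthase over phosphorylase, GSY1 plus GSY2 over GPH1, was 2.59 and 3.42 in dbp2null and 2.71 and 3.35 in wild type, so this ratio did not separate the genotypes. Exact two-sided permutation tests over the 6 ratios gave p = 0.3333 for the 4 that did not overlap, the smallest p that 2 against 2 libraries allow, and 0.5 after Benjamini-Hochberg adjustment over the 6. They gave 0.667 for GSY2 over GSY1 and 1.0 for synthase over phosphorylase.

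**Figure D3:**
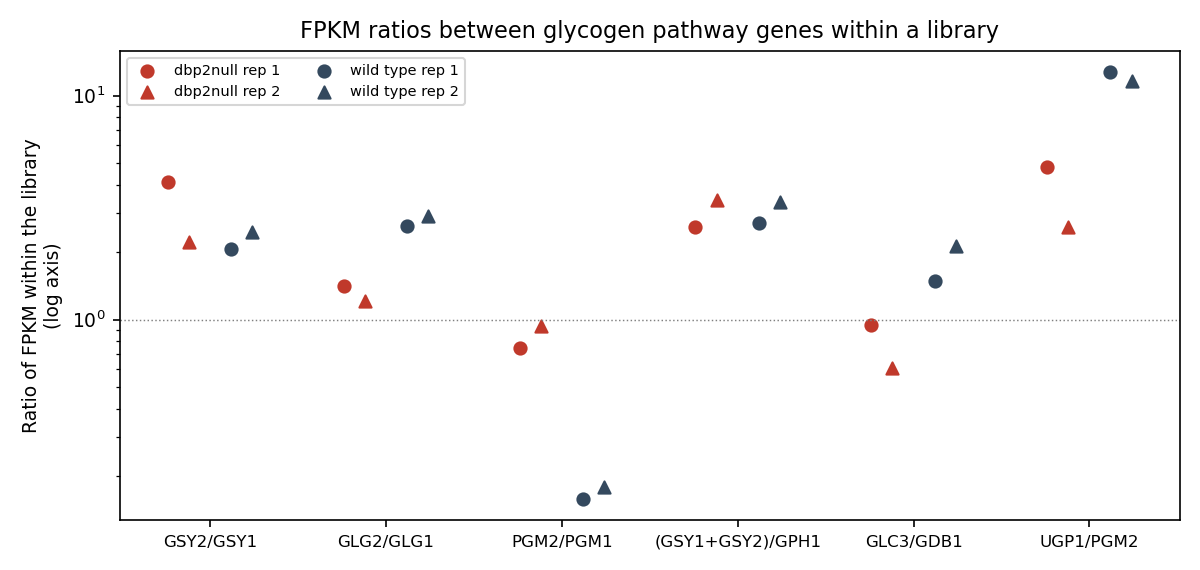
Ratio of FPKM between pathway genes within each library (log axis), for 2 dbp2null (red) and 2 wild-type (dark) libraries; the dotted line marks equal levels. PGM2 over PGM1 lies at 0.749 and 0.931 in dbp2null and at 0.158 and 0.178 in wild type, while synthase over phosphorylase overlaps between genotypes.

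Promoter sequence was examined for what the genes share. The stress response element, AGGGG or its complement CCCCT, lay in the window from 250 bases before to 50 bases after the start codon in 5 of the 9 genes and in 21.6% of 6002 nuclear protein-coding genes. In the 600 bases before the start codon, a window chosen after the data were seen, 8 of the 9 had at least 1 match and 7 at least 2, against 39.7% and 10.7% of all genes. PGM2 had 6 matches, UGP1 5, GLC3 and GPH1 3 each, GSY1, GSY2 and GLG2 2 each, and GDB1 1. GLG1 had none, though it did hold TAGGGAT, one form of the element bound by Gis1, 35 bases before its start, a heptamer found in 3.53% of all genes in the 600-base window and also in GSY2, at 512 bases. TATAAA on either strand was found in 8 of the 9 genes and in 65.1% of all genes over 600 bases. A match is a string of letters in the reference, not a measured binding site.

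Windows of 300 bases that begin 450 bases before the start codon are shown for 4 genes, read on the strand of the gene from RefSeq R64, with stress response elements in capitals: GSY2 as the gene that was called, PGM2 for its 5 matches in this window, GLG1 as a gene that read higher with none, and UGP1 as the gene that read lower with 3. They lie at chrXII:660266-660565 (plus strand), chrXIII:477757-478056 (minus), chrXI:552320-552619 (plus) and chrXI:369441-369740 (plus). The UGP1 window overlaps the coding sequence of the upstream gene AIM26 over 281 bases, and all 3 of its matches fall there, whereas the other 3 windows hold no annotated gene.
GSY2: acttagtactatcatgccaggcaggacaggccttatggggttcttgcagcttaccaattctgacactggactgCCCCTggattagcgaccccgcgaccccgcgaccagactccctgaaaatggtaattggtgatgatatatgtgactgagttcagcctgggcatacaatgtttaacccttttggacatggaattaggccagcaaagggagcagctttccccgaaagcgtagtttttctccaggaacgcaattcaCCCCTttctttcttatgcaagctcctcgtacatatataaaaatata
PGM2: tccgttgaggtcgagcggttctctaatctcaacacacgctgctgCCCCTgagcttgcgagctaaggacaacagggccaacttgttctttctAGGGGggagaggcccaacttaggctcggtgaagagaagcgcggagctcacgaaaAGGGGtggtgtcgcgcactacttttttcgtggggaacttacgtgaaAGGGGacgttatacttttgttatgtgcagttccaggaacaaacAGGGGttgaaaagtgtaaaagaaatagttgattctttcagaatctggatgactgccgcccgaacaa
GLG1: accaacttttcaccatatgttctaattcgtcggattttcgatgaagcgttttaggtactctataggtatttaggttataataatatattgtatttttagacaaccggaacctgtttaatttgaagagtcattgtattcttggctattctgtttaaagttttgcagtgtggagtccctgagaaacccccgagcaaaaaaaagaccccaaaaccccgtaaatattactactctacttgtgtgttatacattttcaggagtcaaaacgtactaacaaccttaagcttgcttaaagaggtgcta
UGP1: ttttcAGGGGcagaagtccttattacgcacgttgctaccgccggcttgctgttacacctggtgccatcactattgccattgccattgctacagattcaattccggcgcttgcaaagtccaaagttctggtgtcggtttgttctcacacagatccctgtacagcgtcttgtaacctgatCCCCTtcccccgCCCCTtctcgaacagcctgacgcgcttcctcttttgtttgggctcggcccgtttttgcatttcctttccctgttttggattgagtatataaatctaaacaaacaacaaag
Over 600 bases UGP1 held 5 matches, most of them inside AIM26, and GLG1 held none. How matches relate to the direction of the RNA differences was not tested.

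**Figure D4:**
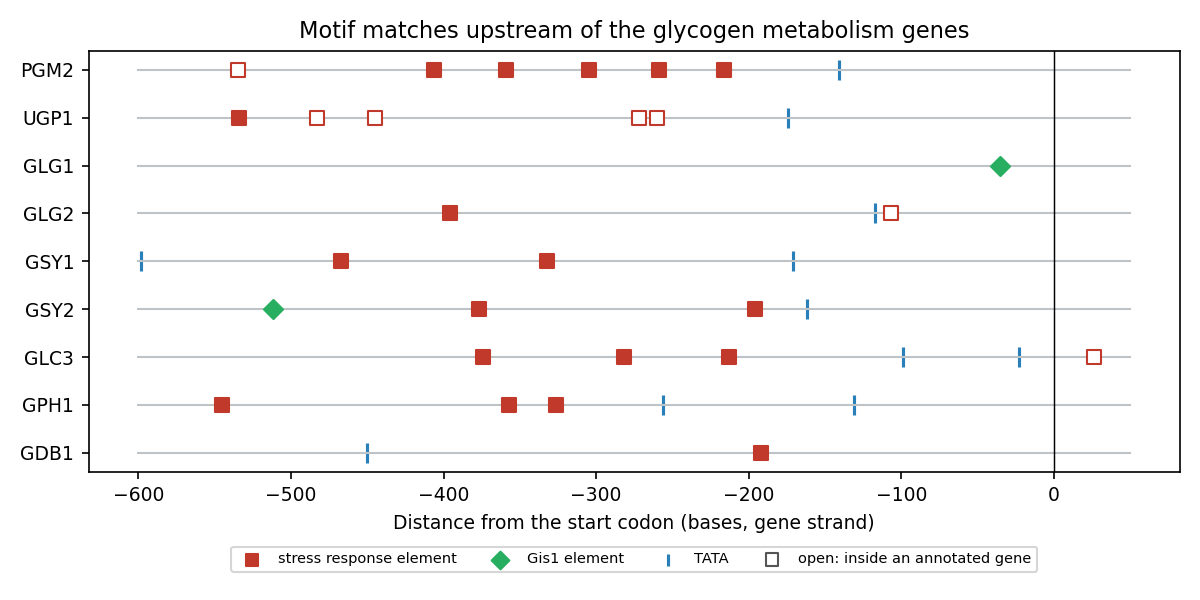
Position of motif matches from 600 bases before to 50 bases after the start codon of each glycogen gene (bases, gene strand, start codon at 0); squares are stress response elements, diamonds TAGGGAT and bars TATAAA, with squares and diamonds open inside an annotated gene. PGM2 has the most stress response elements (6) and GLG1 has none, while 4 of the 5 in UGP1 lie inside AIM26.

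The genes next to the glycogen genes differed in direction. Of 18 flanking genes, 16 had a value in the table. Of these, 5 read higher in both dbp2null libraries, 6 lower in both, and 5 overlapped or, like AIM26, were listed at 0 in all 4 libraries, against 49.8% higher and 20.7% lower among all features. GLG1 and GLG2 each lie beside a copy of the translation initiation factor eIF4A gene on the same strand. TIF1, next to GLG1, read 407 and 268 FPKM in dbp2null against 879 and 863 FPKM in wild type, and TIF2, next to GLG2, 397 and 257 FPKM in dbp2null against 858 and 849 FPKM in wild type. Both were lower where the glycogenin genes were higher, without a call (limma adjusted p = 0.131 and 0.128). TIF1 and TIF2 are near-identical and can share reads. HSP60, the mitochondrial chaperonin gene, lies downstream of GSY2 on the other strand. It read 91.9 and 72.1 FPKM in dbp2null against 300.1 and 287 FPKM in wild type. ATG13, for an autophagy kinase subunit, lies downstream of GDB1. It read 18.8 and 43.5 FPKM in dbp2null against 11.4 and 7.15 FPKM in wild type. Neither was called (limma adjusted p = 0.0559 and 0.0868). YPK2, next to PGM2, had a log2 fold change of 1.63 and RPS21A, next to GLG1, of -1.66, also without a call (limma adjusted p = 0.0614 and 0.353).

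Genes that regulate the pathway had a median close to that of all features. Of 13 genes for subunits and kinases that set glycogen synthase activity, 10 had positive and 3 negative fold changes with a median of 0.35, against 62.3% positive and a median of 0.28 over all features. Of the 13, limma called 0 (6 at an unadjusted p below 0.05, all higher, against 32.5% of all features). GIP2, PIG1 and GAC1, which encode or are thought to encode subunits that direct the phosphatase Glc7 to glycogen, had the largest values. GIP2 read 14.9 and 27.4 FPKM in dbp2null against 5.08 and 3.88 FPKM in wild type (1.96, limma adjusted p = 0.0586), PIG1 22.9 and 36.4 FPKM in dbp2null against 8.44 and 5.70 FPKM in wild type, and GAC1 13.0 and 22.5 FPKM in dbp2null against 5.21 and 4.27 FPKM in wild type. GIP2 and GAC1 lay near the sporulation medians, and PIG1 above them in every library. GLC7 itself, the catalytic subunit, read lower, 156 and 104 FPKM in dbp2null against 208 and 220 FPKM in wild type (-0.75, limma adjusted p = 0.208). SGA1, the glucoamylase that digests glycogen in sporulation, read 10.7 and 18.2 FPKM in dbp2null against 4.08 and 1.76 FPKM in wild type, close to the sporulation medians.

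Among 15 signalling and transcription factor genes, 12 had positive and 3 negative values with a median of 0.42, against 62.3% positive over all features. Of the 15, limma called 1, higher, against 0.973% of all features called higher. At an unadjusted p below 0.05, 6 were higher and 1 lower, against 32.5% and 5.41% of all features. MSN4, one of the paired stress activators, rose to 46.6 and 44.9 FPKM in dbp2null, against 13.7 and 11.1 FPKM in wild type (1.81, SE 0.18, limma adjusted p = 0.0458). Its dbp2null libraries lay close together and well above the sporulation median, as with GSY2, and the call held in 3 of 14 other settings, ending without dbp2null replicate 2, wild-type replicate 1 or wild-type replicate 2 (limma adjusted p = 0.0966, 0.190 and 0.385). Its partner MSN2 read 29.9 and 34.5 FPKM in dbp2null against 20.5 and 16.3 FPKM in wild type without a call (0.78, limma adjusted p = 0.0719).

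**Figure D5:**
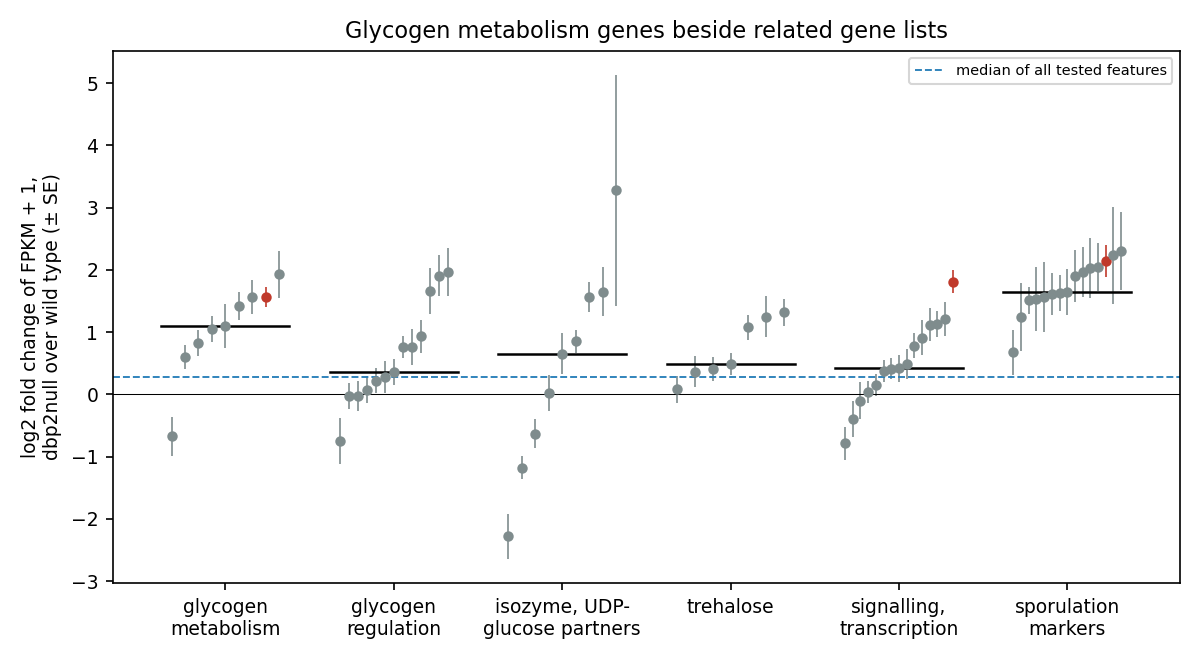
Log2 fold change of FPKM plus 1 (dbp2null over wild type, ± SE from limma, n = 2 libraries each) for each gene of the glycogen list and of 5 related lists; red points passed the test, black bars are list medians and the dashed line is the median of all tested features (0.28). The glycogen median is 1.10 and that of the sporulation genes 1.65; the highest isozyme point is GLK1, listed at 0 in wild-type replicate 2.

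The trehalose genes, for the other storage carbohydrate, also read higher, with a lower median that was not tested against that of the glycogen genes. All 7 lay above wild type in both dbp2null libraries with a median log2 fold change of 0.49, beside 1.10 for the glycogen genes and 0.28 for all tested features, of which 49.8% lay higher in this way. Of the 7, limma called 0 (4 higher at an unadjusted p below 0.05, against 32.5% of all features). TSL1, a regulatory subunit of trehalose synthase, read 38.4 and 51.3 FPKM in dbp2null against 18.8 and 15.8 FPKM in wild type (1.32, limma adjusted p = 0.0559). NTH2, a trehalase gene, read 28.2 and 32.6 FPKM in dbp2null against 15.5 and 12.3 FPKM in wild type, and ATH1, the acid trehalase gene, 11.9 and 18.2 FPKM in dbp2null against 6.39 and 4.96 FPKM in wild type, the last near the sporulation medians and turning to -0.15 under quantile normalization. TPS1, the catalytic subunit that draws on the same UDP-glucose, read 69.9 and 64.3 FPKM in dbp2null against 63.2 and 63.3 FPKM in wild type.

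Other users and suppliers of the glucose phosphates differed in direction. Of 9 measured, 6 had positive and 3 negative values, and limma called 0 (3 higher and 3 lower at an unadjusted p below 0.05, against 32.5% and 5.41% of all features). HXK2, the main hexokinase, read 111 and 97.2 FPKM in dbp2null against 506 and 513 FPKM in wild type (-2.28, limma adjusted p = 0.0559). GLK1, glucokinase, read 68.8 and 64.9 FPKM in dbp2null against 47.7 FPKM in wild-type replicate 1, and was listed at 0 in wild-type replicate 2, which can be a failed estimate, so no fold is given. FKS3, of the FKS1 family of cell wall glucan synthases, read 13.6 and 26.9 FPKM in dbp2null against 6.21 and 4.73 FPKM in wild type, near the sporulation medians.

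Many other genes had a like pattern over the 4 libraries. Of 5122 named features averaging 10 FPKM or more, the 5 nearest to the median profile of the 9 (Euclidean distance of log2 of FPKM plus 1 after subtracting the mean of each gene) were TPO4, DSC3, ATO2, THP1 and FUN19, at distances of 0.086 to 0.093. PGM2 was nearest of the 9 itself, at rank 63, GSY2 stood at rank 1082 and UGP1 at rank 4291. With 4 libraries, this likeness is a description only.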

How the data were processed

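RNA levels were FPKM values per annotated feature as deposited by the authors, 1 column for each of 4 libraries (2 dbp2null, 2 wild type); the submitters' processing notes name CASAVA, TopHat, Cufflinks, edgeR and the genome build sacCer3, with no version or role. Per the labels' protocols, total RNA was ribosome-depleted and made into ScriptSeq libraries with steps changed to keep short RNAs. Use of strand in counting is not given in the sources used here. No column holds counts, so depth is unknown and no count test was run; the total FPKM and the share in protein-coding genes differ between libraries, and values were used at the authors' scale.

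Of 7126 named features (3 blank rows left out), 6781 with a mean of at least 1 FPKM over the 4 libraries were tested. The difference of log2(FPKM + 1), dbp2null minus wild type, was fitted with limma 3.58.1 (R 4.3.3) with a mean-variance trend, two-sided, with Benjamini-Hochberg adjustment over all 6781 features and a threshold of 0.05; the code was tested on simulated data. P-values measure the spread between these libraries only. The smallest p of an exact permutation test over 2 and 2 libraries is 0.3333. Feature names were matched to RefSeq R64, the assembly of sacCer3, for 6079 features, and coordinates and promoter sequence come from it. Motifs were searched on both strands.

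The 9 genes and all gene lists were chosen with earlier results of these data known. Genes of the related lists were named where called, or otherwise up to 3 with the largest change and no overlap between genotypes. PGM1 was named beyond these for its ratio with PGM2. GLC7, MSN2 and TPS1 were added for their roles after their values were seen. PGM3 was not found by name. Other pseudocounts, filters, scalings, a replicate block and leaving out each library were tried.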

Additional observations from a re-analysis of the deposited data

How the results depend on the processing

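The 81 features called (66 higher, 15 lower) became 8 with a pseudocount of 0.1, 425 with a pseudocount of 5, 13 with a minimum mean of 10 FPKM (4 higher, 9 lower), 13 with median centring (3 higher, 10 lower), 5 with quantile normalization (1 higher, 4 lower), 51 with protein-coding genes rescaled to one sum (the median of all features then being 1.14) and 41 without the trend. They were 0 to 2512 with 1 library left out: 2512 without dbp2null replicate 1, 90 without dbp2null replicate 2, 0 without wild-type replicate 1 (1423 at an unadjusted p below 0.05) and 6 without wild-type replicate 2. Subtracting the sporulation median, with negative values set to 0, gave 61 (24 higher, 37 lower). Of the glycogen genes limma called 1, but 2 with a pseudocount of 5. It called 0 with a pseudocount of 0.1 (8 at an unadjusted p below 0.05, against 2520 of 6781 features). It also called 0 with a minimum mean of 10 FPKM (8, against 2433 of 6505) and with median centring (6, against 2226 of 6781). Quantile normalization gave 0 (1, against 1338 of 6781) and rescaling 0 (1, against 449 of 5940). No trend gave 0 (7, against 2279 of 6781) and subtraction 0 (3, against 1104 of 6781). With 1 library left out, calls rest on the spread of the remaining pair, so the glycogen genes called in those fits are not compared here.

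The labels do not say that replicate numbers pair the libraries. Deviations of same-numbered libraries correlated at -0.11. A replicate block gave 16 features (6 higher, 10 lower) and 0 glycogen genes (5 at an unadjusted p below 0.05, against 1847 of 6781 features). A block with crossed numbers, added after seeing the data, gave 2667 features and 8 glycogen genes.

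The glycogen median over that of all features was 0.81. It became 0.60 with a pseudocount of 5, 0.68 with subtraction, 0.73 with rescaling and 0.22 with quantile normalization. With 1 library left out it was 0.51 to 1.09, lowest without dbp2null replicate 2. Signs turned with quantile normalization for GSY1 (-0.13), GLC3 (-0.31) and ATH1 (-0.15), and with rescaling for UGP1 (0.14). With subtraction they turned for GLG2 (-0.070), GSY1 (-0.67), GLC3 (-1.47) and ATH1 (-1.33). The median of all tested features was 1.14 with rescaling and -0.40 with subtraction, beside 0.28 in the main fit. The log2 ratio of synthase over phosphorylase differed by 0.055, by -0.0098 with a pseudocount of 0.1, and by -0.14 to 0.25 with 1 library left out. Promoters with a stress response element were 5 of 9, and 8 in the 600-base window. The causes were not tested, and with 2 libraries a genotype and no counts, depth limits for single genes cannot be given.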
